A study of Homo sapiens with 4 samples.

Results

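The 35 genes described here encode enzymes of the mevalonate and cholesterol pathway, the factors that sense or move sterols, and the enzymes that attach isoprenoid lipids to proteins. They were taken by gene name from a table of 58735 genes, and all 35 were found. The comparison was of SW1990 cells, an established human pancreatic cancer line, kept for 24 h with 10 µM gomisin G (2 libraries) or with vehicle (2 libraries). Gomisin G is a lignan of Schisandra fruits, and the series links it to the Hippo-YAP pathway. All 4 libraries came from the same line, the vehicle is not named in the labels, and nothing in them says that the replicates were grown apart. The p-values therefore cover the spread among these 4 libraries only, which may be technical.

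Mevalonate is made from acetyl-CoA units and is converted by phosphorylation and decarboxylation to isoprenoid diphosphates, which end either in squalene and cholesterol or in the farnesyl and geranylgeranyl groups that anchor Rab and other small GTPases to membranes. Cells set the output by sterol sensing. When sterol in the endoplasmic reticulum is low, SCAP carries SREBP-2 (gene SREBF2) to the Golgi, where it is cut and freed to raise transcription of the pathway's enzymes, and when sterol is high, INSIG1 holds the complex back while oxysterols activate the LXR receptors and cholesterol export.

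Promoter windows from RefSeq (GRCh38.p14), the 250 bases before an annotated start, were matched for 30 of the 35 genes. The sequences below show the sterol element of SREBF2 and CCAAT, letters found in many of these windows. The 10-base sterol regulatory element, spelled by the capitals in the SREBF2 sequence and searched on both strands, was found in the window of 1 of the 30 genes, SREBF2, and in 4 of 10555 tested genes with a window (0.0379%). The looser form TCACNCCAC was also in the SREBF2 window alone among the 30, and in 1.18% of tested genes. A gene was counted when any of its windows matched, and the sequences below are the first matching window of each gene shown. Such a search misses elements that are spelled otherwise or lie outside the window. The lack of a match thus does not show that a gene has no sterol element. CCAAT, the letters read by NF-Y, a factor known to act beside SREBP, was found on either strand in 20 of the 30 (66.7%), against 41.0% of the tested genes and 37.0% of all 27305 genes with a window. The E-box CACGTG was in 4 of the 30 (13.3%), against 11.3% of tested genes. The LXR element (AGGTCA, any 4 bases, AGGTCA) was in 0 of the 30, in 0 of the 10555 tested genes with a window and in 0.0183% of all genes with one. That search therefore could not set these genes apart from the tested genes, and ABCG1, a known LXR target, had no window. In the SREBF2 window (chr22:41832855-41833104, plus strand) capitals mark the sterol regulatory element.
SREBF2: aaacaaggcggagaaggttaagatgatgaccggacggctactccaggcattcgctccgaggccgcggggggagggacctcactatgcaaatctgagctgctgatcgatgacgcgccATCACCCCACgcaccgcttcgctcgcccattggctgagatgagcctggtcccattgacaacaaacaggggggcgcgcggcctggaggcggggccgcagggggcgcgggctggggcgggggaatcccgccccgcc
In the windows of NSDHL (chrX:152830813-152831062, plus strand), FDPS (chr1:155308616-155308865, plus strand) and STARD4 (chr5:111512536-111512785, minus strand) capitals mark CCAAT or its reverse complement ATTGG. There are 5 matches in NSDHL, where a pair overlaps, 3 in FDPS and 2 in STARD4. GENCODE release 29 places the start of NSDHL at 152830967 and that of FDPS at 155308748, inside these windows. By those starts the last marked match of each lies within the gene.
NSDHL: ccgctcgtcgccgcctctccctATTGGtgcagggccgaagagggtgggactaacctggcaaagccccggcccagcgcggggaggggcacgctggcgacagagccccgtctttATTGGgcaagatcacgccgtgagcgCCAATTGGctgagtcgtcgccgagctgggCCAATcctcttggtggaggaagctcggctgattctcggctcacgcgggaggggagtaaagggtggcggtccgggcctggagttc
FDPS: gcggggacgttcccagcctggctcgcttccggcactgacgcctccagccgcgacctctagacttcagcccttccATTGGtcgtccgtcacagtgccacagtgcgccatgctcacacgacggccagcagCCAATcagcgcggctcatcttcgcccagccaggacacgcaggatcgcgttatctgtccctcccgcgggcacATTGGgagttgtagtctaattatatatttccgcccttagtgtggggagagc
STARD4: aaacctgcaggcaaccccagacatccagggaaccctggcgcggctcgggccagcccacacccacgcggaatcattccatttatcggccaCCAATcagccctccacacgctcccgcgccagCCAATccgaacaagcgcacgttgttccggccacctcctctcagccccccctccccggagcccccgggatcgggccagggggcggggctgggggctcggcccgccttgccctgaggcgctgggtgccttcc
These sets are shown because SREBF2 is the pathway's own regulator, FDPS and NSDHL act at the branch point and in the sterol branch, and STARD4 had the lowest log2 change of the 34 tested genes. The same CCAAT letters stood in the windows of genes whose log2 changes ran from -0.52 for STARD4 to 0.75 for NR1H3. The median log2 change was -0.0072 for the 20 tested genes with CCAAT and -0.033 for the 9 tested genes with a window but without it.

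Total counts were 15034663 and 15245770 in the gomisin G libraries and 14580848 and 14901526 in the vehicle libraries, and 15721 genes passed the expression filter. Between replicates, chi-square per gene was 37.2 for the gomisin G pair and 6.98 for the vehicle pair, so the gomisin G libraries differed more from each other. Of 10 epithelial markers fixed for the label, 8 were at 1 CPM (a read count scaled to the size of its library) or more in every library, and all 10 summed to 9420 and 7094 CPM in the gomisin G libraries and 11258 and 9456 CPM in the vehicle libraries. The markers did not move together: KRT8, KRT18 and CDH1 were lower in both gomisin G libraries than in both vehicle libraries, and EPCAM, KRT19, MUC1, CEACAM6, ELF3 and KRT20 were higher. The other 2, KRT7 and CEACAM6, lay between 0.740 and 2.07 CPM. Of 7 fibroblast markers 2 reached 1 CPM in every library, COL1A1 and PDGFRB, and the 7 summed to 8.57 and 11.99 CPM with gomisin G and 4.69 and 4.91 CPM with vehicle, with COL1A2 and LUM at 0 in all. Leukocyte, endothelial, acinar and islet markers each stayed below 1 CPM. The part of such differences in the results below was not tested. In a bulk sample fewer cells of a kind and less RNA per cell cannot be told apart.

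No gene of this set passed the main test, and the log2 changes ran in both directions. Of the 35, 34 passed the expression filter (ABCA1 did not), and of the 34 edgeR's quasi-likelihood test with Benjamini-Hochberg adjustment over all genes called 0, beside 1.83% of all tested genes (0.922% higher and 0.903% lower). An unadjusted p below 0.05 was found for 4 of the 34 (11.8%), beside 20.6% of all tested genes. These were NR1H3 and NR1H2 on the higher side (10.9% of all tested genes) and STARD4 and ICMT on the lower side (9.62%). Of the other tools, limma voom called 0, against 1.58% of all tested genes, and DESeq2 called 2, NR1H2 and NR1H3, against 5.62%. The log2 changes (gomisin G minus vehicle) were positive for 16 and negative for 18, with a median of -0.0072, against 0.0092 over all tested genes. Their median size without sign was 0.19, against 0.30 over all tested genes. The 34 were also the more abundant genes, with a median vehicle level of 62.0 CPM against 22.0 CPM over all tested genes, and the size of a log2 change depends on abundance.

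The width of the intervals says how much change these libraries leave room for. The 95% interval of the log2 change lay wholly between -1 and 1 for 30 of the 34 (88.2%), beside 61.0% of all tested genes, and between -0.5 and 0.5 for 8, beside 11.3% of all tested genes. Interval width also depends on abundance, so these shares do not show that the 34 were steadier than other genes. The median SE was 0.169 for the 34 and 0.215 over all tested genes. The 4 whose interval reached past a 2-fold difference were CYP51A1, NR1H2, NR1H3 and ABCG1. The groups did not overlap for 18 of the 34 (52.9%), beside 54.2% of all tested genes. Gomisin G was the higher for 8 (27.0% of all tested genes) and the lower for 10 (27.3%), so these shares were close to the background.

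**Figure D1:**
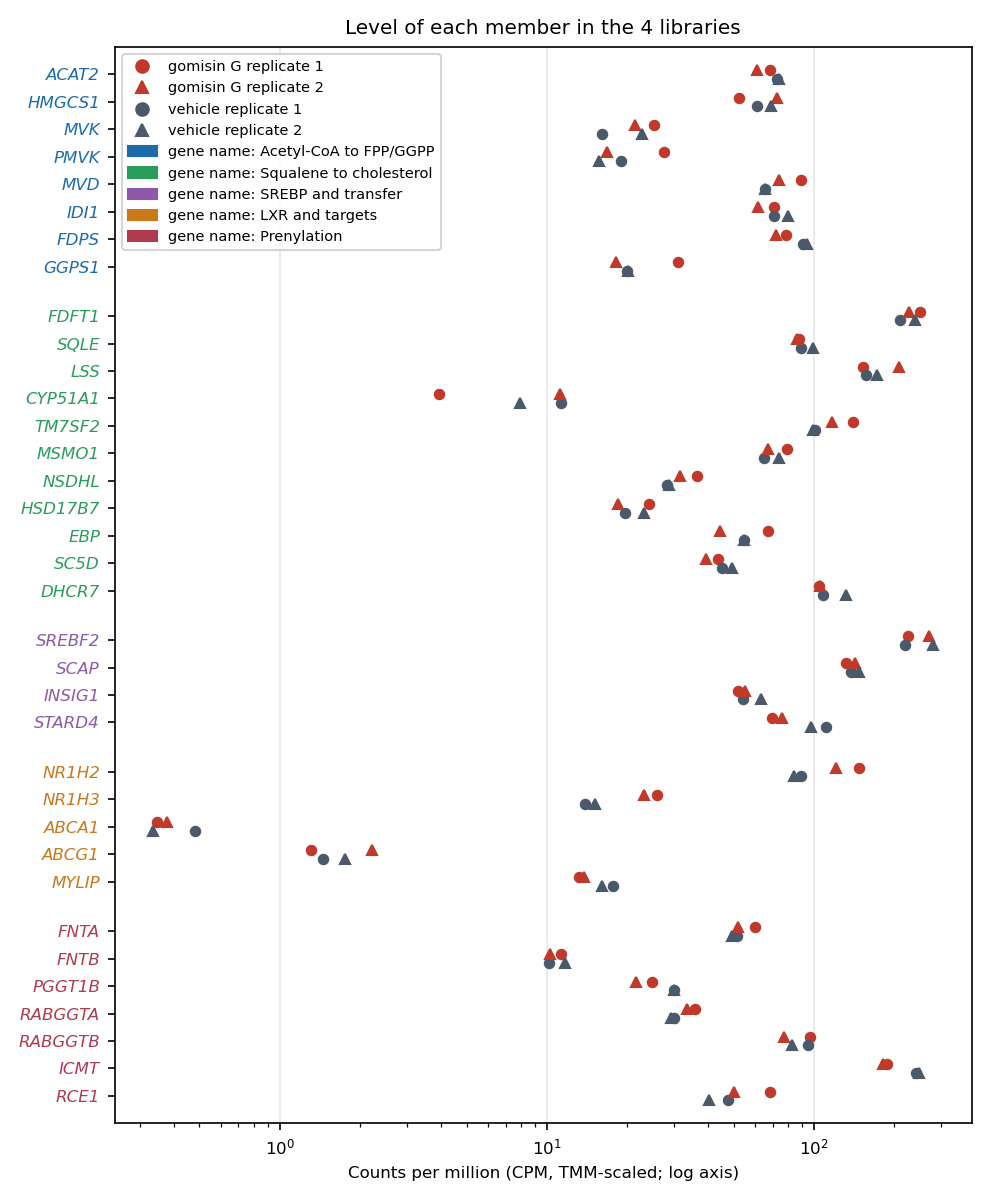
Level of each of the 35 genes in every library, in CPM on a log axis, with gomisin G points above vehicle points for each gene; circles are replicate 1 and triangles replicate 2, and FPP and GGPP are farnesyl and geranylgeranyl diphosphate. Most gene rows hold 4 points close together, the LXR receptor genes NR1H2 and NR1H3 have both gomisin G points to the right, and ABCA1 and ABCG1 lie far left of the rest.

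**Figure D2:**
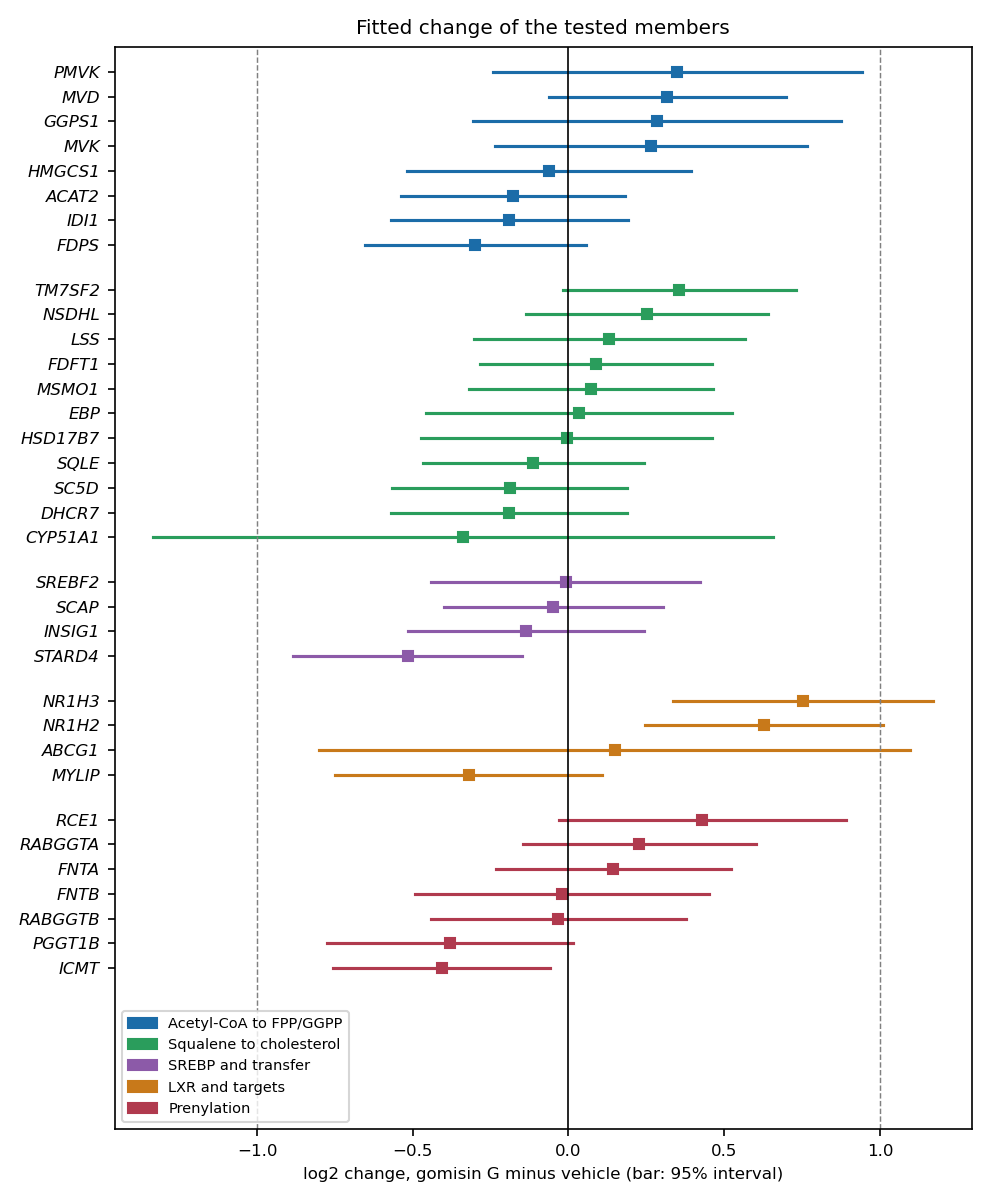
Fitted log2 change (square) with its 95% interval (bar) for the 34 tested genes, sorted within each role; dashed lines stand at -1 and 1. Of the 34 intervals 30 lie between the dashed lines, and only those of NR1H3, NR1H2, STARD4 and ICMT leave out 0.

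The upper mevalonate steps gave no call among 8 genes, near the background of 1.83% of all tested genes. Their log2 changes, 4 positive and 4 negative, lay between -0.30 and 0.35. FDPS, which encodes the synthase of farnesyl diphosphate, the branch point of the pathway, had 78.5 and 71.8 CPM with gomisin G and 90.8 and 94.1 CPM with vehicle. Both gomisin G libraries lay below both vehicle libraries, and the log2 change was -0.30 (95% interval -0.65 to 0.055, edgeR adjusted p = 0.310). MVD, the mevalonate diphosphate decarboxylase gene, went the other way, at 89.1 and 73.9 CPM with gomisin G and 65.5 and 65.3 CPM with vehicle, a log2 change of 0.32 (95% interval -0.063 to 0.70, edgeR adjusted p = 0.313). PMVK, the phosphomevalonate kinase gene, had 27.4 and 16.8 CPM with gomisin G and 19.0 and 15.7 CPM with vehicle, so the groups overlapped (log2 change 0.35, edgeR adjusted p = 0.466). HMGCS1, which encodes the cytosolic HMG-CoA synthase and is a classical SREBP-2 target, had 52.4 and 72.7 CPM with gomisin G and 61.3 and 69.3 CPM with vehicle. Its gomisin G libraries stood on either side of the vehicle pair, and the log2 change was -0.062 (95% interval -0.52 to 0.39). GGPS1, which makes the geranylgeranyl donor, likewise had 447 and 287 counts with gomisin G and 290 and 300 counts with vehicle. The remaining genes of this step had log2 changes of -0.18 for the acetoacetyl-CoA thiolase gene ACAT2, -0.19 for the isomerase gene IDI1 and 0.27 for the mevalonate kinase gene MVK.

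Along the sterol branch 11 genes gave 0 calls, near the background of 1.83% of all tested genes. Their median log2 change was 0.033, with a range of -0.34 to 0.36. TM7SF2, a sterol C14-reductase gene, had 140.2 and 116.7 CPM with gomisin G and 101.3 and 99.4 CPM with vehicle. Both gomisin G libraries lay above the vehicle pair, and the log2 change was 0.36 (95% interval -0.018 to 0.73, edgeR adjusted p = 0.261). LBR, another C14-reductase gene, not among these 11, went the other way. It had 133.7 and 158.2 CPM with gomisin G and 211.3 and 209.7 CPM with vehicle (log2 change -0.53, edgeR adjusted p = 0.127). NSDHL, which takes part in C4 demethylation, had 36.3 and 31.5 CPM with gomisin G and 28.2 and 28.7 CPM with vehicle (log2 change 0.25, edgeR adjusted p = 0.425). SC5D, the lathosterol desaturase gene, had 43.7 and 39.3 CPM with gomisin G and 45.2 and 49.3 CPM with vehicle (log2 change -0.19, edgeR adjusted p = 0.536). The genes of squalene synthesis and epoxidation lay near the vehicle level. FDFT1, the squalene synthase gene, had a log2 change of 0.087 (95% interval -0.29 to 0.46). SQLE, the squalene epoxidase gene, had one of -0.11 (95% interval -0.47 to 0.24). The cyclase gene LSS had 152.7 and 207.4 CPM with gomisin G and 156.0 and 172.7 CPM with vehicle, a log2 change of 0.13. The later genes MSMO1 (log2 change 0.073), EBP (0.033), HSD17B7 (-0.0061) and DHCR7 (-0.19) were no further from 0 than 0.20.

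CYP51A1, the lanosterol demethylase gene, had the widest spread of the sterol enzymes. It had 57 and 177 counts with gomisin G, or 3.94 and 11.2 CPM, and 164 and 118 counts with vehicle, or 11.3 and 7.94 CPM. The gomisin G libraries thus held both the lowest level and one close to the higher vehicle level, and the log2 change of -0.34 had a 95% interval of -1.33 to 0.66. In the GENCODE release 29 annotation 83.2% of its exon bases are also exon bases of other genes, mostly of AC000120.2 and AC000120.3, which had 0 counts in every library. Per kilobase of exon CYP51A1 stood at 2.11 CPM with gomisin G and 2.69 CPM with vehicle, the lowest of the 19 enzyme genes drawn in pathway order. Divided by its 602 unshared exon bases instead, the same CPM gave 12.5 per kilobase with gomisin G and 15.99 with vehicle. Reads were not counted over those bases separately, so these values hold only if every counted read fell there. The setting by which the authors counted reads that fall in several genes is not known from the sources used, and its part in this level was not tested. Among the 35 genes, 4 share over 30% of their exon bases (CYP51A1, ACAT2, FNTB and GGPS1) and 16 share none, so the levels of these 4 are uncertain, as are those of the 5 genes with named pseudogenes.

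**Figure D3:**
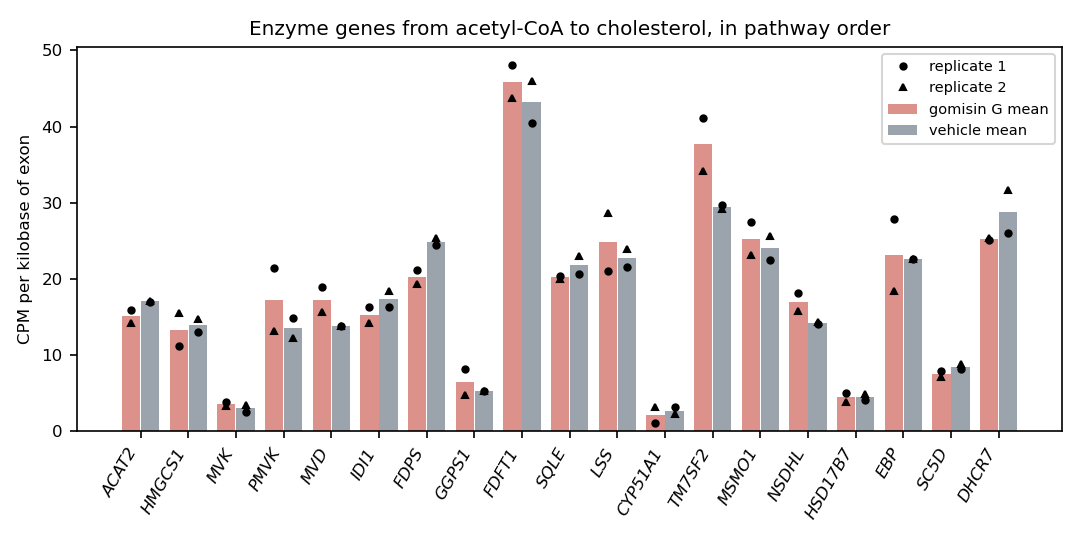
Level per kilobase of annotated exon for the 19 enzyme genes in pathway order; bars are group means (gomisin G left, vehicle right) and points the libraries. FDFT1 is highest, at 45.9 CPM per kilobase with gomisin G and 43.2 with vehicle, and CYP51A1 lowest, and the profile of levels is alike in both groups.

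On the scale of CPM per kilobase of exon, levels differed more between genes than between groups. FDFT1 led the enzymes at 45.9 with gomisin G and 43.2 with vehicle, followed with gomisin G by TM7SF2 at 37.7, against 29.4 with vehicle. The kinase gene MVK stood at 3.59 with gomisin G and 2.98 with vehicle, and HSD17B7 at 4.45 with gomisin G and 4.47 with vehicle. Over the whole set ICMT had the highest vehicle level per kilobase, 49.8, against 37.5 with gomisin G.

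The sterol-sensing genes gave 0 calls among 4, beside 1.83% of all tested genes, so a count of 0 is near the background. All 4 log2 changes were negative in the main test, but those of SREBF2 and SCAP were close to 0. They kept their sign in 8 and 9 of the 13 alternatives. SREBF2 had 225.3 and 269.5 CPM with gomisin G and 218.7 and 279.0 CPM with vehicle, a log2 change of -0.0083 (95% interval -0.44 to 0.42). In both groups replicate 2 was the higher, by more than the groups differed. SCAP, the escort protein gene, had 132.1 and 142.3 CPM with gomisin G and 137.0 and 146.8 CPM with vehicle, a log2 change of -0.049 (95% interval -0.40 to 0.30). INSIG1, the sterol-dependent anchor and itself an SREBP-2 target, had 51.7 and 55.2 CPM with gomisin G and 54.3 and 63.2 CPM with vehicle, a log2 change of -0.14 (edgeR adjusted p = 0.671).

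STARD4, which encodes a small cytosolic sterol carrier, had the lowest log2 change of the 34. It lies on chromosome 5 at 111496033 to 111512590 (GRCh38). Its levels were 69.5 and 75.9 CPM with gomisin G and 110.4 and 97.5 CPM with vehicle, with no overlap between the groups. The means were 72.7 ± 4.52 and 104.0 ± 9.14 CPM with gomisin G and with vehicle (SD, n = 2 each), and the log2 change was -0.52 (SE 0.16, 95% interval -0.88 to -0.15). It did not pass the test (edgeR adjusted p = 0.130, unadjusted p = 0.0119). Both gomisin G libraries lay well below the vehicle mean, by log2 differences of -0.58 and -0.45.

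The LXR receptor genes had the highest log2 changes, whereas the export genes they control had few counts. NR1H3, which encodes LXRα (chromosome 11, 47248300 to 47269032), had 25.9 and 23.0 CPM with gomisin G and 13.9 and 15.1 CPM with vehicle. NR1H2, which encodes LXRβ (chromosome 19, 50329653 to 50382982), had 147.1 and 121.1 CPM with gomisin G and 89.3 and 84.2 CPM with vehicle. For both genes each gomisin G library lay above each vehicle library. The log2 changes were 0.75 (SE 0.18, 95% interval 0.34 to 1.17) for NR1H3 and 0.63 (SE 0.17, 95% interval 0.25 to 1.01) for NR1H2. Neither passed edgeR's test (adjusted p = 0.0779 for NR1H3 and 0.0931 for NR1H2). Both were called by DESeq2 (adjusted p = 0.0476 for NR1H3 and 0.0371 for NR1H2) and by edgeR with the trend on gene length removed (adjusted p = 0.0379 for NR1H3 and 0.0454 for NR1H2), so the call depends on the method. The 95% intervals of both leave out 0 before adjustment for the number of genes.

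The 3 other genes of this arm, all known targets of LXR, were low or went the other way. ABCA1, the main cholesterol exporter, had 5 and 6 counts with gomisin G and 7 and 5 counts with vehicle, too few to test. ABCG1, an exporter to lipoprotein particles, had 19 and 35 counts with gomisin G and 21 and 26 counts with vehicle, a log2 change of 0.15 with a 95% interval of -0.80 to 1.10, which takes in both 0 and a 2-fold higher level. MYLIP, which encodes IDOL, the LXR-induced ligase that removes lipoprotein receptors, had 13.2 and 13.8 CPM with gomisin G and 17.7 and 16.02 CPM with vehicle. Both gomisin G libraries lay below the vehicle pair, with a log2 change of -0.32 (95% interval -0.75 to 0.11, edgeR adjusted p = 0.360).

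The enzymes of protein prenylation gave 0 calls among 7, near the background of 1.83% of all tested genes. ICMT, which methylates the prenylated cysteine at the end of processing (chromosome 1, 6221193 to 6235972), had 187.7 and 180.8 CPM with gomisin G and 241.1 and 247.5 CPM with vehicle. The replicates of each group were close and the groups did not overlap; the log2 change was -0.41 (SE 0.15, 95% interval -0.76 to -0.058) and missed the threshold (edgeR adjusted p = 0.187). RCE1, the protease that acts before ICMT and removes the last residues, had 68.5 and 50.1 CPM with gomisin G and 47.6 and 40.4 CPM with vehicle, a log2 change of 0.43 (95% interval -0.032 to 0.89, edgeR adjusted p = 0.271). The successive steps RCE1 and ICMT thus had log2 changes of opposite sign, neither past the test. PGGT1B, the catalytic subunit of GGTase I, which adds geranylgeranyl groups to proteins, had 24.7 and 21.5 CPM with gomisin G and 30.01 and 30.01 CPM with vehicle, a log2 change of -0.38 (95% interval -0.78 to 0.015, edgeR adjusted p = 0.258). FNTA, the alpha subunit shared by farnesyltransferase and GGTase I, had a log2 change of 0.14, and FNTB, the catalytic farnesyltransferase subunit, one of -0.021. RABGGTA and RABGGTB, which encode the subunits of the enzyme that geranylgeranylates Rab proteins, had log2 changes of 0.23 and -0.033.

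The gomisin G libraries often stood on opposite sides of the vehicle mean. They did so for 13 of the 34 genes (38.2%), against 31.3% of all tested genes. The median over the 34 was -0.018 for replicate 1 and -0.045 for replicate 2. For the upper mevalonate genes these medians were 0.15 and -0.093, and for the prenylation enzymes 0.13 and -0.091. CYP51A1 lay at -1.24 in the first library and 0.23 in the second, GGPS1 at 0.62 and -0.15, and PMVK at 0.66 and -0.038. NR1H3 lay at 0.83 and 0.66, NR1H2 at 0.76 and 0.48, ICMT at -0.38 and -0.43 and STARD4 at -0.58 and -0.45. Each was on one side of the vehicle mean in both libraries, as were most of the 34 genes and most of all tested genes.

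**Figure D4:**
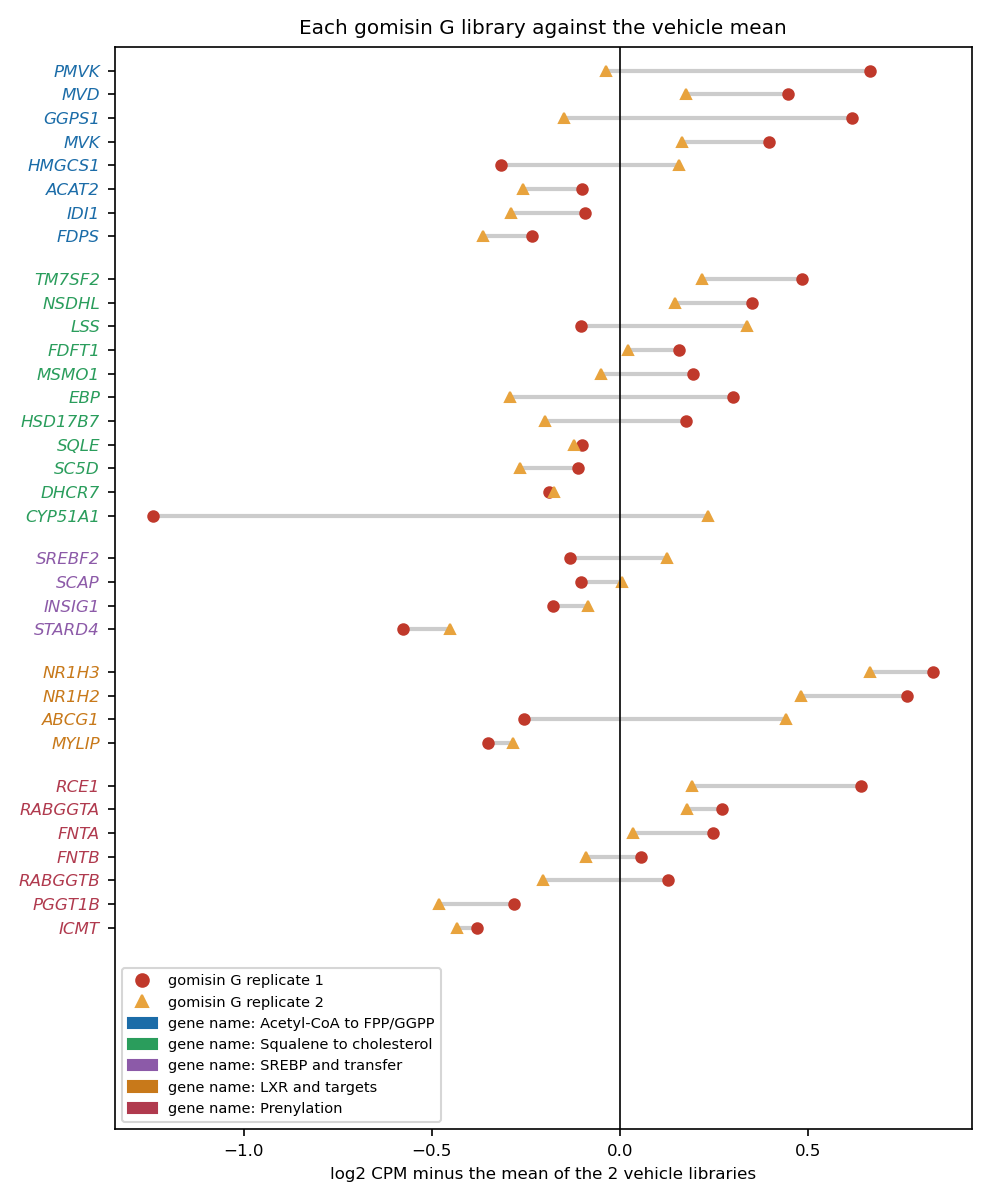
Log2 CPM of each gomisin G library minus the mean of the vehicle libraries for the 34 tested genes; circles are replicate 1, triangles replicate 2, and a grey line joins them. For 13 genes the line crosses 0, most widely for CYP51A1 (-1.24 and 0.23). For the others, among them NR1H3, NR1H2, STARD4 and ICMT, it does not.

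No call among these genes was made under RLE factors (1.63% of all tested genes), upper-quartile factors (1.77%), no expression filter (0.896%), a floor of 50 counts in 2 libraries (2.64%) or the legacy fit (1.70%). The length-trend fit called 2, NR1H2 and NR1H3, beside 5.78% of all tested genes, and the fit with a replicate block called these and STARD4, beside 18.4%. More calls appeared when a gomisin G library was left out and the spread rested on the vehicle pair. Without gomisin G replicate 1, 7 of 34 were called, beside 17.1% of all tested genes: LSS, NR1H2 and NR1H3 higher, and ICMT, FDPS, STARD4 and PGGT1B lower. Without gomisin G replicate 2, 10 of 34 were called, beside 38.6% of all tested genes: MVD, NR1H2, TM7SF2, RCE1, PMVK, NR1H3 and GGPS1 higher, and ICMT, STARD4 and CYP51A1 lower. The genes common to both sets were NR1H2, NR1H3, ICMT and STARD4, the same as those with an unadjusted edgeR p below 0.05 in the full fit. Both sets rest on the same vehicle libraries, so they are not independent. Without either vehicle library the count was 0, beside 0.960% and 0.813% of all tested genes without vehicle replicates 1 and 2.

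**Figure D5:**
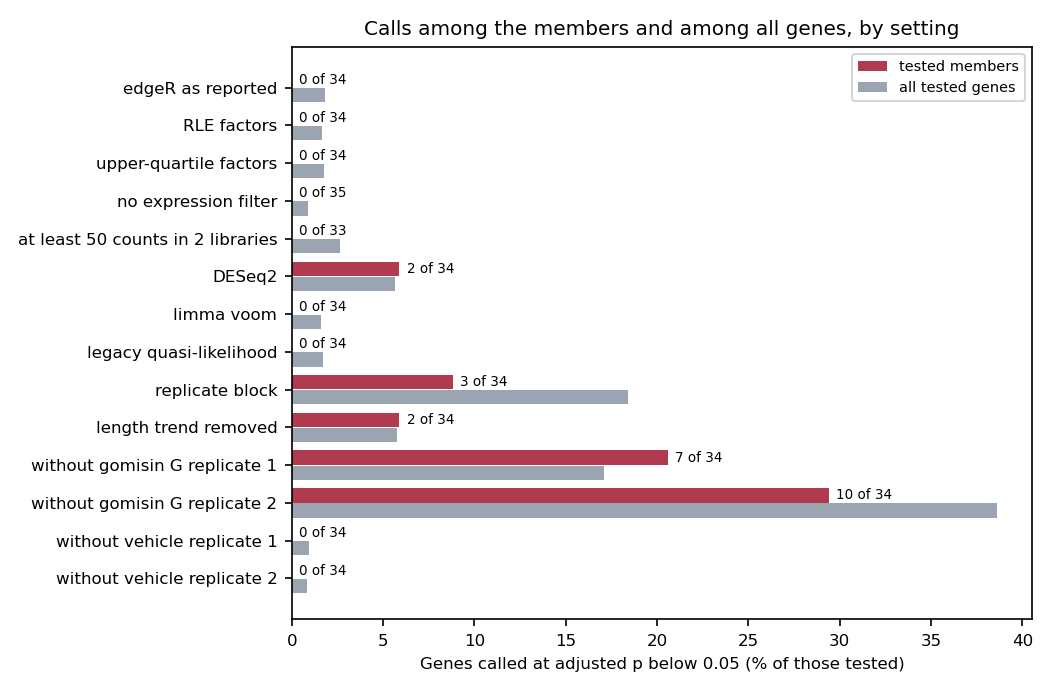
Share of genes called at an adjusted p below 0.05 among the 34 tested pathway genes (33 or 35 under other filters; red) and among all tested genes (grey) under each setting, with the number of pathway genes printed. The pathway genes reach 7 and 10 calls in the fits without a gomisin G library, where calls over all genes are 17.1% and 38.6%, and 0 to 3 under the other settings.

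Lists of other genes of the pathway gave a call for a Rab escort protein gene, and 0 calls in sterol sensing and uptake. Of 22 further genes of sterol synthesis, sensing and uptake all were tested and edgeR called 0, beside 1.83% of all tested genes, so a count of 0 is near the background. An unadjusted p below 0.05 was found for 6 (27.3%), beside 20.6% of all tested genes, and the median log2 change was -0.13. The lowest p belonged to TMEM97, a sterol-regulated membrane protein gene, at 62.6 and 56.1 CPM with gomisin G and 90.5 and 96.6 CPM with vehicle (log2 change -0.66, edgeR adjusted p = 0.0785). MBTPS2, the site-2 protease that frees SREBP, had 19.7 and 21.7 CPM with gomisin G and 31.5 and 31.2 CPM with vehicle (log2 change -0.60, edgeR adjusted p = 0.107). TMEM97 was called by DESeq2 (adjusted p = 0.0280) and by edgeR with the length trend removed (adjusted p = 0.0181), where MBTPS2 was not. Both were called by edgeR with a replicate block (adjusted p = 0.00149 for TMEM97 and 0.00993 for MBTPS2) and without either gomisin G library, and neither under the other alternatives. Of 16 genes of isoprenoid side branches and prenylation aids, 15 were tested and 1 fell (6.67%, beside 1.83% of all tested genes called), CHML, which encodes a Rab escort protein that presents Rab proteins for prenylation. CHML had 27.9 and 43.4 CPM with gomisin G and 85.7 and 83.4 CPM with vehicle, a log2 change of -1.24 (SE 0.22, edgeR adjusted p = 0.0386). Its log2 differences from the vehicle mean were -1.60 and -0.96 in the gomisin G libraries.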

How the data were processed

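The authors deposited raw counts per gene for 4 libraries, 2 of SW1990 cells with gomisin G and 2 with vehicle. Per the submitters' processing notes fastp, HISAT2, featureCounts and build hg38 were used; versions, strand and multi-mapping settings are not given in the sources used here. Per the labels' protocols RNA was depleted of ribosomal RNA. Gene length (other unit, bases of annotated exon, per the file headers) served for levels per kilobase.

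Counts were fitted with edgeR 4.0.16 in R 4.3.3: default expression filter by group, TMM factors, robust quasi-likelihood F test on treatment alone (2 residual degrees of freedom), Benjamini-Hochberg adjustment over 15721 genes, threshold 0.05. A standard error is the log2 change over the root of F, and a 95% interval uses the t distribution on the fit's degrees of freedom. Levels are CPM with TMM factors; 3 counts equal 0.189 to 0.207 CPM. Libraries were set against the vehicle mean on log2 CPM with a prior count of 2. Alternatives, 13 in all, used RLE or upper-quartile factors, other filters, DESeq2 1.42.0, limma 3.58.1 voom, the legacy fit, a replicate block, a length-trend offset and each library left out. The script was tested on simulated data.

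The members and lists were chosen with earlier results of these data known. Values per library are given for the 3 members with the lowest p in each of 5 roles (15 in all) and, in the other lists reported, for called genes or else the 2 with the lowest p. A further list, of prenylated proteins, is not reported here. Further members given with values (among them HMGCS1, GGPS1, LSS, CYP51A1, SREBF2, ABCA1 and ABCG1) were chosen after their values were seen. LBR, from the other lists, was chosen likewise. All 35 coordinates were those of GENCODE release 29, per the file's columns.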

Additional observations from a re-analysis of the deposited data

How the results depend on the processing

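Under RLE or upper-quartile factors, no expression filter, at least 50 counts in 2 libraries, limma voom and the legacy fit, 0 of these genes were called, as in the values reported. DESeq2 called 2 of them (883 genes in all), the length-trend offset 2 (909 in all) and the replicate block 3 (2886 in all, 18.4%): NR1H2 and NR1H3 in each, with STARD4 added by the block. Leaving out one library gave 0 to 10 of these genes and 135 to 6322 genes in all. The median log2 change of these genes became 0.051 with upper-quartile factors, 0.017 with the length trend removed and -0.052 to 0.095 with a library left out, against -0.0072 as reported, so its sign depends on the setting. The log2 change of SCAP reversed to 0.0091 with upper-quartile factors and 0.031 with the length trend removed, and ranged from -0.10 to 0.0020 with a library left out. That of PMVK ranged from -0.047 to 0.66 with a library left out. The other single genes given values by rule kept their direction under every alternative run, and CHML kept its call; the causes of the changes above were not tested. The labels do not say that replicate numbers pair libraries; replicate 1 minus replicate 2 correlated between groups with r = 0.21 across 15721 genes, which are not independent. With 2 libraries a group, counts under about 50, as for ABCA1 and ABCG1, limit what can be seen.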
